A study of Homo sapiens with 4 samples.

Results

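Accessible chromatin was examined at 50 genes of WNT signalling, chosen by name from 19689 protein-coding genes. They were 19 WNT ligands and 14 receptors and co-receptors (FZD1 to FZD10, LRP5, LRP6, ROR1 and ROR2). A further 9 were secreted inhibitors (DKK1 to DKK4, SFRP1, SFRP2, SFRP4, SFRP5 and WIF1). The others were 4 feedback regulators (AXIN2, RNF43, ZNRF3 and LGR5) and 4 TCF/LEF factors (TCF7, TCF7L1, TCF7L2 and LEF1). Every gene was found in GENCODE release 44, and a peak at its promoter (2000 bp either side of any transcription start site, TSS) or in its window (the gene with 20000 bp either side) was scored in each line as present in both, in C4-2B only, in C4-2BER only or in none. The assay was ATAC-seq, which tags open chromatin with the transposase Tn5. It compared the prostate adenocarcinoma cells C4-2B with their neuroendocrine-like derivative C4-2BER (labelled C4-2B_Enza_Resist), obtained by growing C4-2B under continuous enzalutamide, an androgen receptor inhibitor. Each line had 2 libraries, which the authors merged before calling peaks, so 1 peak list per line was compared and no difference below has a replicate check or a p-value. C4-2BER is 1 derived line, so a difference from C4-2B cannot be told apart from a difference particular to this derivative.

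WNT proteins are secreted lipid-modified ligands that bind a Frizzled receptor together with LRP5 or LRP6 and so keep β-catenin from being degraded. Stabilised β-catenin joins TCF/LEF factors on DNA and activates target genes, among which AXIN2, RNF43, ZNRF3 and LGR5 feed back on the pathway. Other ligands such as WNT5A act through ROR1 or ROR2 without β-catenin, and DKK, SFRP and WIF1 proteins block ligands or co-receptors outside the cell. In the prostate the pathway is known for its part in bud growth during development and in progression of cancers that no longer depend on androgen.

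Depth as recovered from the lists was 30.2 M (C4-2B) and 25.2 M reads (C4-2BER), and the lists held 149676 and 118728 peaks. A strength is given below as the reads over a peak summit within 200 bp, which were recovered from the deposited fold and p-value, and lists hold no site under 8 reads in C4-2B or 7 in C4-2BER. Absence of a peak therefore means that none was called at this depth, not that chromatin was closed. Promoter peaks of 7 of 7 neuroendocrine marker genes and 6 of 6 androgen-regulated or luminal marker genes were present in both lines. Over all protein-coding genes the share with a promoter peak in both was 77.7%. At KLK3, which encodes prostate-specific antigen, 171 reads in C4-2B stood against 45 in C4-2BER, and NCAM1, a neural adhesion molecule, held 24 and 59. The marker lists thus did not separate the lines by presence of a peak.

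A total of 5 member promoters had a peak in C4-2BER alone, and the sequences of 4 of them are shown because their promoter class differs between the lines. No run is printed for WNT3A, whose summit lay mostly in untranslated sequence. Each run is the plus strand of hg38 around a C4-2BER summit, 5′ to 3′, without untranslated bases, and capitals mark a match to the TCF/LEF core CTTTGAT or its other strand ATCAAAG. The WNT2 runs lie at chr7:117324550-117324750 and chr7:117323617-117323817, both upstream of the gene, the WNT6 run in the gene at chr2:218860966-218861166, the WNT10A run at chr2:218883529-218883729 and the WIF1 run just upstream of its first exon at chr12:65121306-65121390.
WNT2 (summit 1592 bp upstream): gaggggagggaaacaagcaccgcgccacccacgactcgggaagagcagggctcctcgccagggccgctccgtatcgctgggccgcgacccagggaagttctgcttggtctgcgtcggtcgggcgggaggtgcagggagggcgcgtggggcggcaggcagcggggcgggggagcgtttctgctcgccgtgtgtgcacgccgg
WNT2 (summit 659 bp upstream): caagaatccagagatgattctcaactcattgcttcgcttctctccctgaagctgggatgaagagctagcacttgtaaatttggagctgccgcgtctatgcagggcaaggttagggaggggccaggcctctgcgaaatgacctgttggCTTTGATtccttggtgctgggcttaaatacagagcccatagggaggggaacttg
WNT6: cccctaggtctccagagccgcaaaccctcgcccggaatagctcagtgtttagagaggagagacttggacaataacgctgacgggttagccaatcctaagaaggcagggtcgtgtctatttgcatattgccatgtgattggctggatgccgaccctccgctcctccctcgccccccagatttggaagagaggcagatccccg
WNT10A: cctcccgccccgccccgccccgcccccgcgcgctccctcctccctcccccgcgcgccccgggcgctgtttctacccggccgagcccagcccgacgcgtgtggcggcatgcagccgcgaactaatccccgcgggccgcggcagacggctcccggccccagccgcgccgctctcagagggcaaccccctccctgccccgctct
WIF1: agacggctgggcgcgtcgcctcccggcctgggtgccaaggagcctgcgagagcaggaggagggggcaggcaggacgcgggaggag

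The GC content was 73.1% in the first WNT2 run, 51.7% in the second, 56.7% in WNT6, 80.6% in WNT10A and 75.3% in WIF1. A match to the TCF/LEF core was found in the second WNT2 run and in none of the other 4. The match describes letters and does not show that a factor was bound.

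To find which arms of the pathway differed in promoter accessibility, the promoter classes were first counted by role. A promoter peak was present in both lines for 41 of the 50 genes (82%, Wilson 95% interval 69.2 to 90.2, counting error only), and the share over all protein-coding genes was 77.7%. In C4-2BER only, 5 genes had a peak (10%, 4.35 to 21.4) against 3.39% of all genes. In C4-2B only, 0 genes had one, which allows a share of up to 7.13%, and 2.83% of all genes were in that class. No promoter peak in either line was found for 4 genes (8%, 3.15 to 18.8) against 16.0% of all genes. The interval for C4-2BER only lies above the background in this setting, but it counts 5 genes. Of these, WNT6 and WNT10A are neighbours on chromosome 2. With 1000 bp promoters the class held 4 genes, against 3.92% of all genes, and an interval for 4 of 50 (3.15 to 18.8) holds that share. With a −log10 q of at least 10 in both lists it held 3 genes, against 3.39%. The excess thus depends on the setting.

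The promoter classes differed in number between roles. All 14 receptors and co-receptors, all 4 feedback regulators and all 4 TCF/LEF factors had a promoter peak in both lines. Among the 19 ligands, 13 had a peak in both, 4 in C4-2BER only (21.1%, 8.51 to 43.3) and 2 in neither. Among the 9 secreted inhibitors, 6 had a peak in both, WIF1 in C4-2BER only and 2 in neither. In the wider gene window every one of the 50 genes had peaks in both lines. The difference between roles was not tested.

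**Figure D1:**
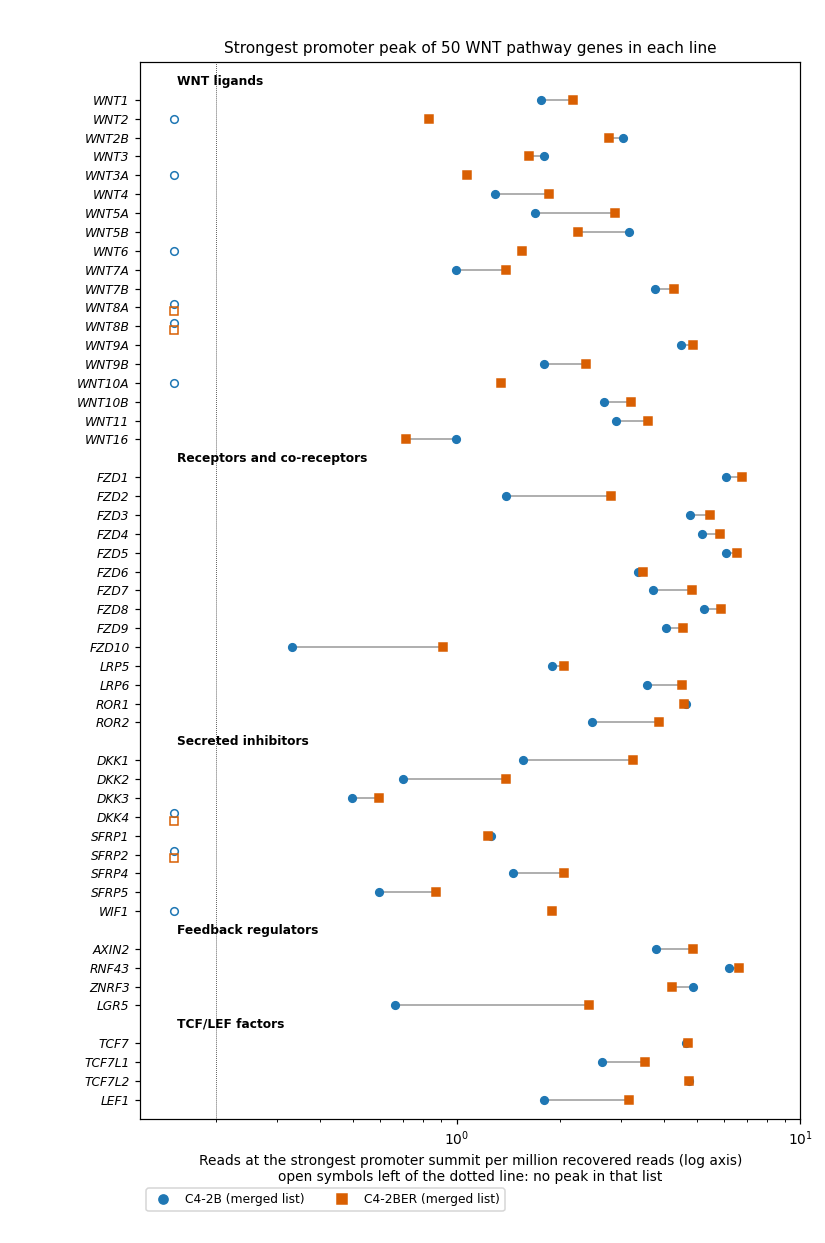
Reads at the strongest promoter summit of each of the 50 genes, per M recovered reads (log axis), in C4-2B (circles) and C4-2BER (squares), with 1 merged list per line and no error bar. Open symbols left of the dotted line mark a list with no promoter peak: WNT2, WNT3A, WNT6, WNT10A and WIF1 lack one in C4-2B alone, and WNT8A, WNT8B, DKK4 and SFRP2 lack one in both.

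WIF1 encodes a secreted protein that binds WNT ligands and keeps them from their receptors. Its promoter peak in C4-2BER lay at chr12:65120976-65121667 with 48 reads, 9.76-fold over the local background (−log10 q 32.2). The summit was 15 bp inside the gene, and the peak was stronger than 80.4% of all peaks of its list. At the depth of C4-2B these reads correspond to 57.4. If the background there equalled that of C4-2BER scaled for depth (4.81 reads), 13 would have reached the weakest p-value of the C4-2B list. The background of C4-2B itself was not used. The nearest C4-2B peak was 19877 bp away, in an intron of the gene, with 26 reads. WIF1 thus had the strongest C4-2BER-only peak of all member windows by −log10 q.

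WNT6 and WNT10A, neighbouring ligand genes that are active in epithelial development, each had their C4-2BER-only promoter peak downstream of the TSS. The WNT6 peak (chr2:218860909-218861376) held 39 reads at 1261 bp inside the gene with a fold of 5.81, and a weaker peak with 15 reads lay 174 bp inside it. The WNT10A peak (chr2:218883504-218883796) held 34 reads with a fold of 7.09 and lay 1468 bp from the nearest TSS. Scaled to the depth of C4-2B, they correspond to 46.7 and 40.7 reads, and 16 and 12 would have been enough under the same assumption of background. WNT10A depends on the promoter definition, since with 1000 bp windows it left this class.

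WNT2, a ligand of lung and mesenchymal development, had 3 C4-2BER peaks within 2000 bp upstream of its TSS, with 21, 19 and 16 reads. The strongest, at chr7:117324119-117324786, was enriched 4.2-fold (−log10 q 6.95) and ranked above 33.7% of its list. WNT3A, a classical activator of β-catenin, had 1 peak at chr1:228006975-228007208 with 27 reads, enriched 2.89-fold (−log10 q 4.88), 80 bp inside the gene. Both were weak within their list: WNT3A ranked above 18.6% of peaks. Their reads correspond to 25.1 and 32.3 at the depth of C4-2B, where 13 and 21 would have been enough under the same assumption of background. When both lists were limited to a −log10 q of 10 or more, WIF1, WNT6 and WNT10A remained.

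**Figure D2:**
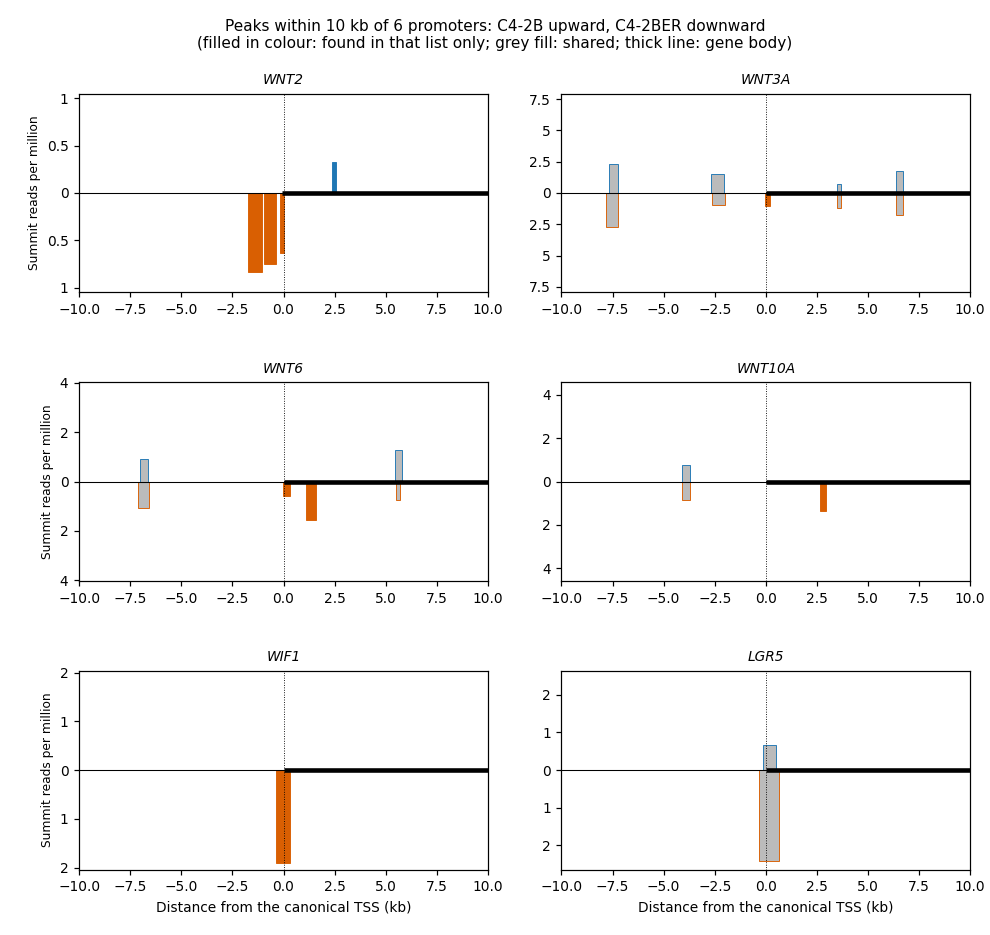
Peaks within 10 kb of the TSS of WNT2, WNT3A, WNT6, WNT10A, WIF1 and LGR5, drawn by distance from the canonical TSS (kb, in the direction of transcription), with summit reads per M recovered reads upward for C4-2B and downward for C4-2BER. Coloured bars were found in 1 list only and grey bars in both. C4-2BER-only bars lie at the first 5 promoters, and LGR5 has a grey bar in each line, of 20 reads upward and 61 downward.

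WNT8A, WNT8B, DKK4 and SFRP2 had no promoter peak in either line. WNT8A and WNT8B are ligands used mainly in the early embryo, and their promoters were poor in CpG, with an observed over expected CpG of 0.157 and 0.195. DKK4, an inhibitor of LRP co-receptors, stood at 0.361. SFRP2, a secreted decoy for WNT ligands, differed from these with 0.728, which is the median of all 50 members. A shared peak inside SFRP2 at chr4:153786512-153786765, 2432 bp from its TSS with 23 reads in C4-2B, held a TCF/LEF core. The members' promoters as a whole were richer in CpG than those of all genes, with medians of 0.728 and 0.638. The 5 promoters with a C4-2BER-only peak had a median of 0.715 (0.441 to 0.766), against 0.527 over all genes of that class and 0.254 over all genes with a C4-2B-only promoter peak.

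Among the 41 genes with a promoter peak in both lines, the reads at the strongest summit were compared after scaling for depth. The ratio of C4-2BER to C4-2B had a median of 1.20 (quartiles 1.07 and 1.41), and its median over 15305 genes was 1.10 (1.00 and 1.20). It was above 1 for 34 of 41 members and for 74.9% of all genes. A total of 4 members were at least 2-fold higher in C4-2BER, namely LGR5, FZD10, DKK1 and FZD2, against 3.06% of all genes. None was at least 2-fold lower, against 1.39%. The strongest peaks of the lines did not overlap in 10 of the 41 genes, so that those ratios compare different sites. For 8 of the 10 an overlapping pair of promoter peaks was also present, and at the pair with the most reads, read after the values were seen, DKK2 (3.22) and WNT3 (0.421) passed 2-fold in opposite directions. The median ratio was 1.20 for ligands, 1.12 for receptors, 1.44 for inhibitors, 1.17 for feedback regulators and 1.17 for TCF/LEF factors.

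**Figure D3:**
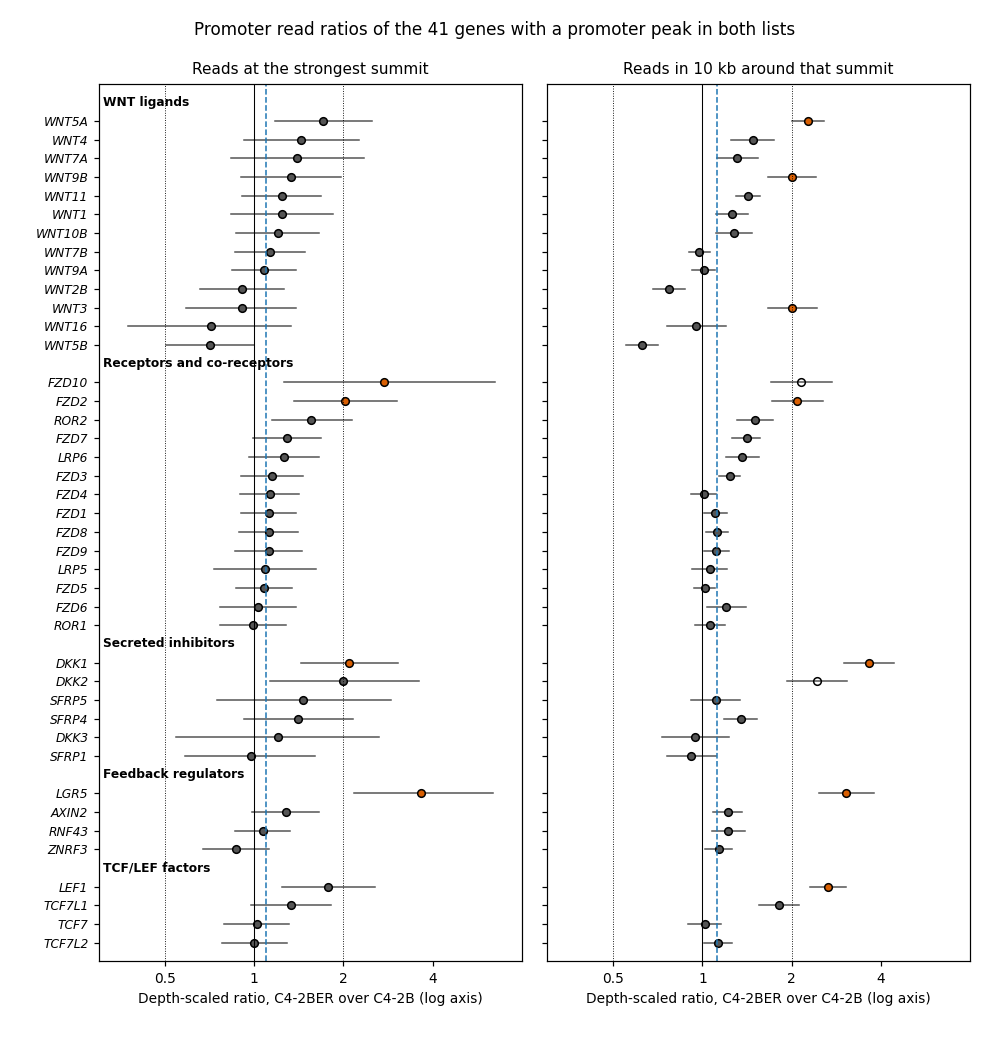
Depth-scaled ratio of C4-2BER to C4-2B (log axis) for the 41 genes with a promoter peak in both lists, for reads at the strongest summit (left) and reads in 10 kb around it (right). Bars are exact conditional binomial 95% intervals for counting error only, the dashed line is the median of all genes (1.10 and 1.12), dotted lines mark 2-fold, orange points are at or above 2, and open points rest on a list whose background was at its floor. LGR5 has the highest ratio on the left and DKK1 on the right.

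LGR5, the R-spondin receptor that marks intestinal stem cells, had the highest ratio. At its promoter summit 20 reads in C4-2B stood against 61 in C4-2BER, a ratio of 3.65 (exact conditional binomial 95% interval 2.17 to 6.39, counting error only). The peaks overlapped (chr12:71439645-71440292 and chr12:71439449-71440430), with summits 313 bp apart near different LGR5 TSSs, and both also lay within the promoter of TSPAN8. Within its own list the peak ranked above 38.7% of C4-2B peaks but above 83.0% of C4-2BER peaks. The other feedback regulators lay near the median, with 115 and 123 reads at AXIN2 (1.28, 0.984 to 1.66), 187 and 167 at RNF43 (1.07) and 147 and 107 at ZNRF3 (0.871, 0.672 to 1.12).

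The 14 receptor promoters ranged from 10 to 183 reads (C4-2B) and from 23 to 171 (C4-2BER), and 12 of them had ratios between 0.991 (ROR1) and 1.56 (ROR2, 75 and 98 reads, 1.15 to 2.14). FZD1, FZD5, FZD4 and FZD8, receptors for WNT ligands, were the strongest in both lines, from 156 to 183 reads (C4-2B) and from 147 to 171 (C4-2BER). FZD2 was higher in C4-2BER with 42 and 71 reads (2.02, 1.36 to 3.04), at summits 2 bp apart. FZD10 held 10 and 23 reads (2.75, 1.26 to 6.48), the lowest level of any receptor in either line. The FZD10 peaks did not overlap, with summits 640 bp apart, so this ratio compares neighbouring sites.

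Among the secreted inhibitors, DKK1, which blocks LRP5 and LRP6, had 47 reads against 82 in C4-2BER (2.09, 1.44 to 3.05) at summits 12 bp apart. DKK2, of the same family, fell just under the threshold with 21 and 35 reads (1.99, 1.13 to 3.61). Its strongest peaks lay at different sites: at 1880 bp inside the gene 13 reads stood against 35, and at 1033 bp upstream 21 stood against 31. SFRP1 had the lowest ratio of the group with 38 and 31 reads (0.976, 0.587 to 1.61). At the strongest summit SFRP5 (18 and 22) and SFRP4 (44 and 52) had intervals that held 1. SFRP4 had further C4-2BER-only promoter peaks with 38 and 35 reads. Its reads summed over all promoter summits were 44 and 125 (3.4). DKK3 held 15 reads in each line, but at peaks 2016 bp apart, and none of its promoter peaks was shared.

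The ligands with a peak in both lines ranged from WNT5B to WNT5A. WNT5A, which signals through ROR receptors, held 51 and 73 reads (1.71, 1.18 to 2.50), and its strongest peaks were 2310 bp apart. WNT5B, its closest relative, held 96 and 57 reads and had the lowest strongest-summit ratio of all members (0.71, 0.503 to 0.996). The C4-2B summit of that site lay 1050 bp from the nearest TSS. At another shared WNT5B promoter peak, near other start sites (chr12:1629838-1630684 in C4-2B), 40 reads stood against 42, so the lower ratio holds for 1 site. WNT9A held 136 and 123 reads (1.08). The strongest WNT7B peaks, with 114 and 108 reads (1.13), had summits 1823 bp apart, and the ratio at an overlapping pair was 1.17. For WNT16 the strongest peaks were 2692 bp apart, with 30 reads in C4-2B at a C4-2B-only site upstream and 18 in C4-2BER (0.718, 0.377 to 1.33). At the overlapping WNT16 promoter peaks 15 reads stood against 18 (1.44, 0.683 to 3.06), so the ratio lay on the other side of 1, and both intervals held 1. WNT3 and WNT9B, adjacent genes in opposite directions, share a promoter peak at chr17:46832955-46833316 with 54 and 19 reads (0.421). A peak at another WNT3 TSS, chr17:46818676-46818934, was found in C4-2BER only with 41 reads. The WNT3 ratio of 0.908 therefore compares a different start site in each line.

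Of the TCF/LEF factors, LEF1 had the highest ratio, with 54 and 80 reads (1.77, 1.24 to 2.55), and TCF7L2 the lowest, with 143 and 120 (1.00, 0.781 to 1.29). TCF7 held 140 and 119 reads. The strongest TCF7L1 peaks, with 80 and 89 reads, were 82445 bp apart, and at the overlapping pair 66 reads stood against 89 (1.61, 1.16 to 2.25). A further LEF1 peak lay 4378 bp upstream in C4-2BER only (chr4:108173170-108173600) with 50 reads. When the reads of all promoter summits were summed, LEF1 had a ratio of 0.987 (137 and 113 reads).

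The surroundings of these promoters were also compared. Above its floor, the peak caller's local background is a count of reads in 10 kb around the summit. This measure was added after its values were seen. Its 10 kb include the promoter peak itself, so it is not separate from the summit reads. In all, 9 of the 41 members were at least 2-fold higher in C4-2BER (22%), against 3.24% of all genes. At least 2-fold lower were 0, against 0.555%. Among the 9, FZD10 (2.15) and DKK2 (2.43) rest on a C4-2B background at its floor, which is not a count in 10 kb. WNT3 and WNT9B (2.01 each) rest on the same C4-2B peak, with 183 reads in 10 kb. Where the strongest peaks of the lines overlapped, so that the same place was compared, 4 of 31 passed (12.9%) against 1.98%. These were DKK1 with 140 and 426 reads in 10 kb (3.64, 3.00 to 4.44), LGR5 with 121 and 309 (3.06, 2.47 to 3.80), LEF1 with 308 and 681 (2.65, 2.31 to 3.04) and FZD2 with 167 and 292 (2.09, 1.72 to 2.55). WNT5B was the lowest with 742 and 389 (0.627, 0.553 to 0.71). The median of the members was 1.22 and that of all genes 1.12.

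The fold enrichment sets the summit reads against a background that includes the peak. The ratio of the fold enrichments did not pass 2 for any member, and it was 1.41 for LGR5 and 0.69 for DKK1. Summing the reads of all promoter summits gave 7 members at or above 2-fold, against 6.37% of all genes. These were DKK1, DKK2, FZD2, FZD10, LGR5, SFRP4 and WNT5A. Setting the median of all genes to 1 left LGR5 and FZD10, against 2.46% of all genes. The 2-fold calls thus hold for reads over the site and not for enrichment over the local background.

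Peaks across the whole gene windows were then compared, to cover distal sites. The windows held 419 C4-2B peaks, of which 134 were C4-2B only (32.0%, 27.7 to 36.6), against 35.3% in the windows of all genes. They held 356 C4-2BER peaks, of which 73 were C4-2BER only (20.5%, 16.6 to 25), against 19.2%. Both shares lay near the background. At least 1 C4-2B-only peak was found in 40 of the 50 windows (77.5% of all genes) and at least 1 C4-2BER-only peak in 33 (56.3% of all genes). The median line-only peak held 17 reads in either line, whereas the median shared peak held 45 reads (C4-2B) or 30 (C4-2BER).

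A summit within a promoter was found for 14 of 134 C4-2B-only peaks (10.4%, against 9.96% for all genes) and for 24 of 73 C4-2BER-only peaks (32.9%, against 18.9%). For ligands the latter was 14 of 31. The share was thus higher in C4-2BER over all genes too. These promoter peaks include further peaks at promoters that also had a shared peak, such as WNT7B with 61 reads 1008 bp upstream of a TSS and SFRP4 with 38 reads.

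**Figure D4:**
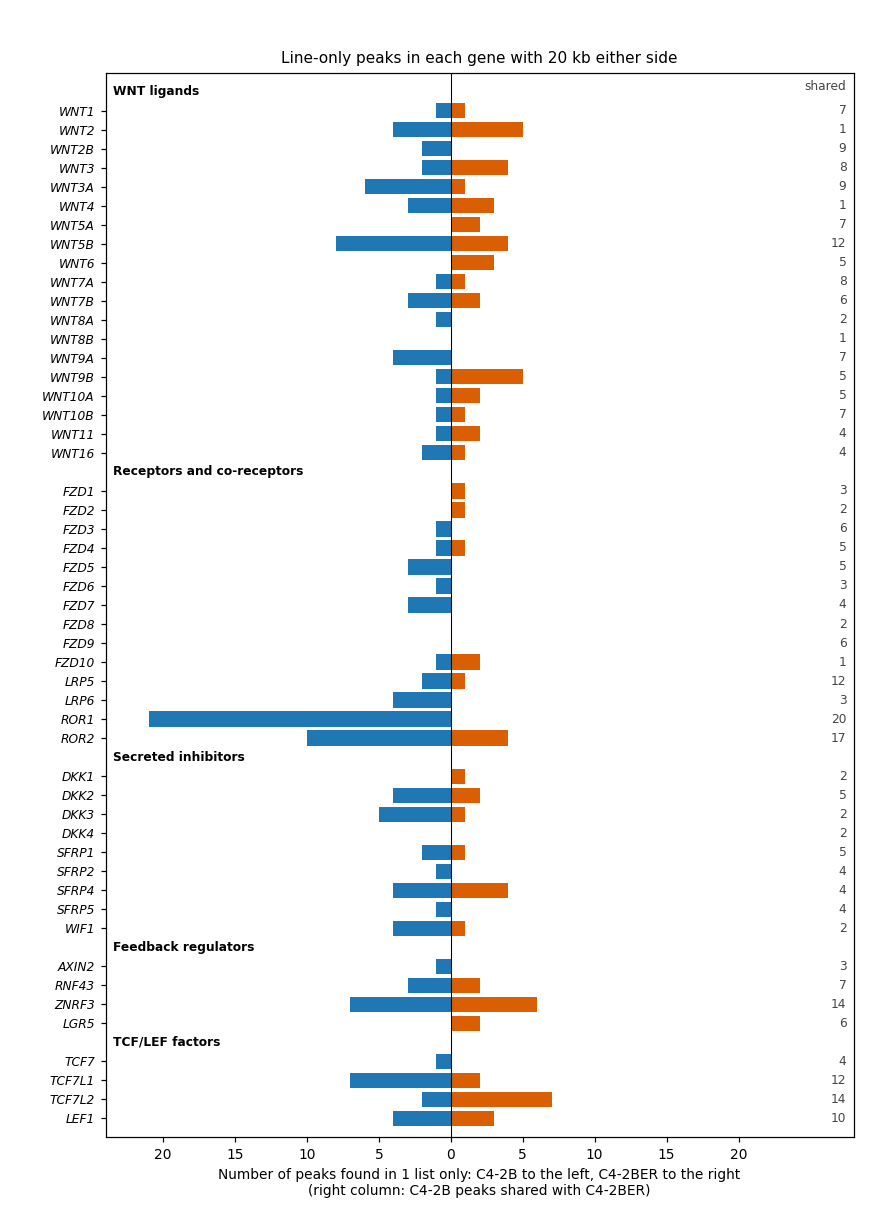
Number of peaks found in 1 list only in the window of each gene (the gene with 20 kb either side), with C4-2B to the left and C4-2BER to the right, and in the right column the C4-2B peaks shared with C4-2BER. Peaks in windows of neighbouring members count for each. ROR1 has 21 C4-2B-only and 0 C4-2BER-only peaks, and TCF7L2 has 2 and 7.

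ROR1, a receptor tyrosine kinase for WNT5A, had the most one-sided window, across a gene of 407482 bp on chromosome 1. Its C4-2B peaks numbered 41 and its C4-2BER peaks 21, with 21 C4-2B-only peaks, 7 of which reached a −log10 q of 10, and 0 C4-2BER-only peaks. The strongest, in an intron at chr1:63901661-63902113, held 104 reads, 18.7-fold over background (−log10 q 96.7, the highest of all line-only member peaks). At 19 shared sites with summits within 200 bp the median ratio was 0.638, and 7 were at least 2-fold lower, such as an intronic site with 157 and 34 reads (0.259). The strongest promoter summit of ROR1 held 140 and 116 reads (0.991), and a C4-2B-only peak with 63 reads lay 916 bp upstream. Without ROR1, the C4-2B-only share of the member windows was 29.9% (25.5 to 34.7), and that of the receptors was 27.4% in place of 34.6%.

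ROR2 and WNT5B followed with 10 and 8 C4-2B-only peaks, and each had 4 C4-2BER-only peaks. A −log10 q of 10 was reached by 1 and 6 of these C4-2B-only peaks and by 0 and 1 of the C4-2BER-only ones. TCF7L2, the main TCF factor of the gut, had the most C4-2BER-only peaks with 7, against 2 in C4-2B only. Of these, 1 in each line reached a −log10 q of 10. At 14 shared TCF7L2 sites with summits within 200 bp the median ratio was 0.665, with 0 at least 2-fold higher and 2 at least 2-fold lower. ZNRF3, which removes Frizzleds from the membrane, had 6 C4-2BER-only and 7 C4-2B-only peaks. WNT9B and WNT2 each had 5 C4-2BER-only peaks, beside 1 and 4 C4-2B-only peaks. A −log10 q of 10 was reached by 3 and 0 of the former and by 1 and 2 of the latter. Among other genes with a C4-2BER-only promoter peak, the WIF1 and WNT3A windows held 4 and 6 C4-2B-only against 1 and 1 C4-2BER-only peaks. The WNT6 and WNT10A windows held 0 and 1 against 3 and 2. LRP6 had 4 C4-2B-only peaks, 0 of which reached a −log10 q of 10, and 0 C4-2BER-only peaks. The receptors together had 10 C4-2BER-only of 97 C4-2BER peaks (10.3%, 5.7 to 17.9), below the 19.2% of all genes, and 13.2% (7.31 to 22.6) without ROR1.

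**Figure D5:**
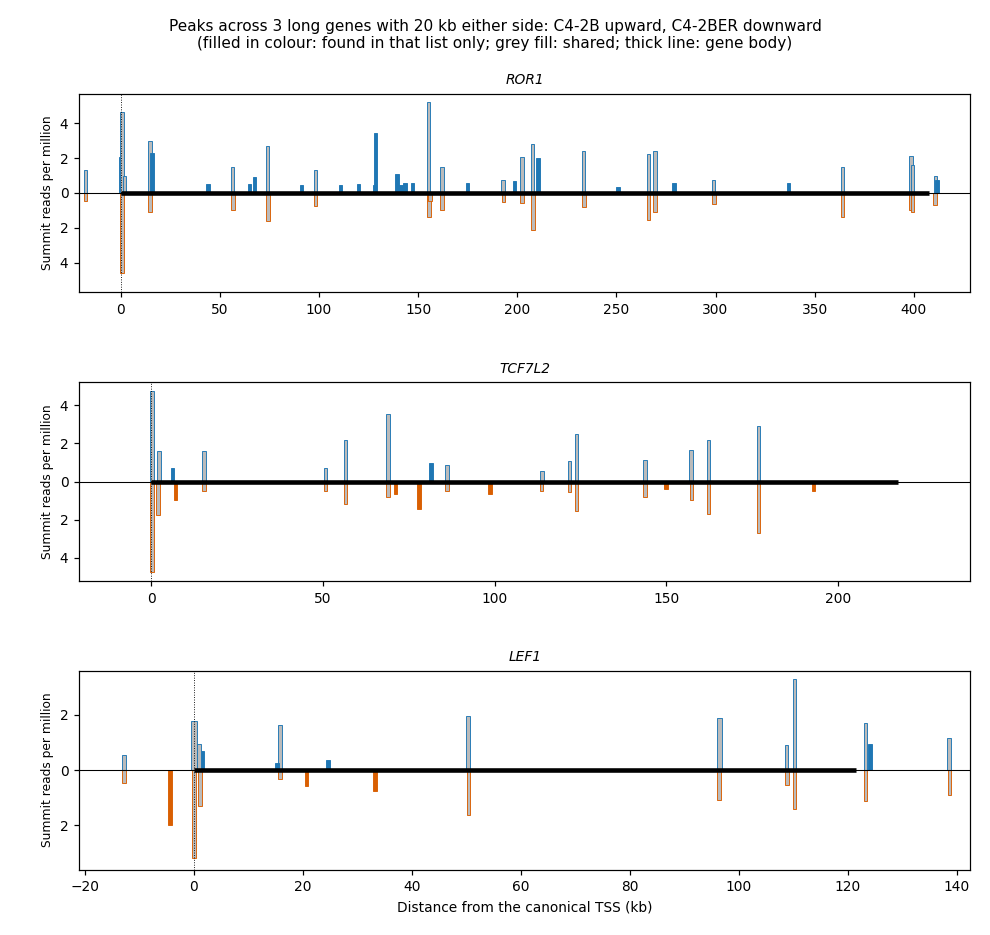
Peaks across ROR1, TCF7L2 and LEF1 with 20 kb either side, by distance from the canonical TSS (kb), with summit reads per M recovered reads upward for C4-2B and downward for C4-2BER. Coloured bars were found in 1 list only and grey bars in both, and the thick line is the gene. In ROR1 coloured bars point upward only, in TCF7L2 7 point downward and 2 upward, and the promoter bars at 0 kb have like heights in ROR1 and TCF7L2.

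The other strongest C4-2B-only peaks lay at FZD4 (chr11:86962129-86962711, 6933 bp upstream, 81 reads), LRP5 (chr11:68467964-68468673, downstream of the gene, 100 reads), WNT3 (chr17:46794130-46794793, intron, 67 reads) and WNT9B (chr17:46893871-46894569, downstream, 69 reads). After WIF1, the strongest C4-2BER-only peaks lay at SFRP4 (chr7:38034168-38034728, 8873 bp upstream, 30 reads), TCF7L2 (chr10:113027727-113028440, intron, 36 reads), FZD4 (chr11:86967567-86968093, 12326 bp upstream, 28 reads) and the WNT10A promoter. The upstream flank of FZD4 thus held a line-only peak of each line, while its promoter held 156 and 147 reads.

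Shared sites differed in strength as well. Of 267 shared pairs with summits within 200 bp, 11 were at least 2-fold higher in C4-2BER (4.12%, against 2.51% for all genes) and 29 at least 2-fold lower (10.9%, against 12.7%), with a median ratio of 0.915 against 0.926. The 200 bp limit was set after the values of distant pairs were seen. The highest ratio was in the last part of WNT3A, an exonic site at chr1:228059559-228060215 in C4-2B with 37 reads there and 188 in C4-2BER (6.08), which was the strongest C4-2BER summit of any member window. DKK1 also had a site 5886 bp upstream with 13 and 31 reads (2.85), and WNT5A one 15454 bp upstream with 16 and 37 (2.77). The lowest were introns of LEF1 with 49 and 8 reads (0.195) and TCF7L2 with 107 and 21 (0.235).

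Motifs were counted within 100 bp of the summits on both strands, as letters and not as bound sites. The TCF/LEF core was found in 6 of 73 C4-2BER-only member peaks (8.22%, 3.82 to 16.8), against 2.20% of all C4-2BER-only peaks, and in 5 of 134 C4-2B-only member peaks (3.73%, 1.60 to 8.44), against 2.62%. Of shared peaks, 14 of 285 held it in C4-2B (4.91%, 2.95 to 8.08), against 1.99%. The 6 C4-2BER-only matches lay at ZNRF3 (3), TCF7L1 (2) and WNT2 (1), so they come from 3 genes. The 5 C4-2B-only matches lay at ROR1, FZD5, LEF1, DKK3 and SFRP4. Shared promoter peaks of AXIN2 (115 and 123 reads) and TCF7 (140 and 119) also held the core.

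None of the 5 strongest line-only peaks of either line held the TCF/LEF core. Peaks that did are shown instead, chosen after their values were seen, to show where the core lay. In C4-2BER these were ZNRF3 at chr22:28865062-28865262 (20 reads, upstream) and at chr22:28873680-28873880 (16 reads, upstream). In C4-2B these were ROR1 at chr1:63773001-63773201 (63 reads, 916 bp upstream), FZD5 at chr2:207744134-207744334 (30 reads, downstream, within the promoter of CCNYL1) and LEF1 at chr4:108045018-108045218 (29 reads, downstream). All runs are the plus strand of hg38, and capitals mark the TCF/LEF core, the AP-1 site TGANTCA and the forkhead site TGTTTAC.
ZNRF3 (20 reads): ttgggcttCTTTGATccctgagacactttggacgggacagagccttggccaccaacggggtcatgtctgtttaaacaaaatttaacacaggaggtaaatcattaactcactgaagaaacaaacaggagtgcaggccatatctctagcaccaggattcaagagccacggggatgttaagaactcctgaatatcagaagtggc
ZNRF3 (16 reads): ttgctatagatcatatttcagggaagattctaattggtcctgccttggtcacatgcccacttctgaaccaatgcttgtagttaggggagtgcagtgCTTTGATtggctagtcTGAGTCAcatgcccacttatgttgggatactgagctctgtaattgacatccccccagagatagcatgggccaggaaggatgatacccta
ROR1: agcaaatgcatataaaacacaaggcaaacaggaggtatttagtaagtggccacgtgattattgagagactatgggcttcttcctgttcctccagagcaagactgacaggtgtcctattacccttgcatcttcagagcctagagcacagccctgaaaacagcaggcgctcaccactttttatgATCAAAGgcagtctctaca
FZD5: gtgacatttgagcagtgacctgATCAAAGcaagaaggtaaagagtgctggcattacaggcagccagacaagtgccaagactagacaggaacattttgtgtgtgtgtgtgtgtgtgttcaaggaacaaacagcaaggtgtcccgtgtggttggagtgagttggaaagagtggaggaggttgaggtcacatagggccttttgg
LEF1: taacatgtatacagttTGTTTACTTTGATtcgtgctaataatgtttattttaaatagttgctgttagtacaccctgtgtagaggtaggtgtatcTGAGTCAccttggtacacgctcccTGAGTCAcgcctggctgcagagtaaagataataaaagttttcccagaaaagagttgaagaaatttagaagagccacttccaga

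In the LEF1 run the forkhead site and the TCF/LEF core overlap, and 2 AP-1 sites follow. In the second ZNRF3 run an AP-1 site follows the core. Androgen response elements were matched in 5 of the 134 C4-2B-only member peaks (3.73%, 1.60 to 8.44, against 2.84% of all such peaks) and in 0 of 73 C4-2BER-only member peaks, which allows up to 5.00% (0.239% of all such peaks). ROR1 held 1 of the C4-2B-only matches, and its intronic site with 157 and 34 reads held the element too. The forkhead site was found in 12.7% and 4.11% of the line-only member peaks (all 12.2% and 6.12%), the E-box CAGCTG in 8.96% and 20.5% (13.1% and 13.4%), AP-1 in 8.96% and 5.48% (11.2% and 9.01%) and the PBX-HOX site TGATTNAT in 2.24% and 0% (2.84% and 3.31%). The C4-2BER-only member peaks had a median GC content of 54.7% and the C4-2B-only ones 48.5%, and the part of base composition in these shares was not tested. In the RefSeq promoters of hg38 (250 bases before to 50 after a start), 34 members matched with 41 promoters, and the TCF/LEF core was in 0 of them, which allows up to 8.57%, against 2.62% of 35116 promoters.

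Other genes of the pathway were read from a list of 82, of which 81 matched the annotation. A promoter peak was present in both lines for 77, against 77.7% of all genes. In C4-2B only it was present for DACT2 (27 reads), an antagonist of Dishevelled, against 2.83% of all genes. C4-2BER only held BCL9L (127 reads), a β-catenin cofactor, and RSPO4 (33 reads), an R-spondin ligand of LGR receptors, against 3.39% of all genes. The BCL9L peak was only 2.77-fold over a local background of 45.1 reads. CER1 had a peak in neither, against 16.0% of all genes. The median ratio was 1.09, against 1.10 over all genes. At least 2-fold lower were 0 genes (1.39% of all genes), and at least 2-fold higher were 2 (3.06% of all genes). These were WLS, which carries WNT ligands to the cell surface, with 37 and 72 reads (2.33, 1.55 to 3.56), and SOSTDC1, a secreted inhibitor, with 13 and 34 (3.13, 1.61 to 6.46). All 12 planar polarity genes, all 11 listed target genes and 19 of 20 genes of cytoplasmic signal transduction had a peak in both lines.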

How the data were processed

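ATAC-seq was carried out in 2 libraries of C4-2B and 2 of C4-2BER. Per the study's methods, reads were aligned to hg38 with Bowtie2, the replicates of a line were merged, and macs2 called peaks on reads extended to 200 bp. The macs2 version is not given in the sources used here, and its local background makes fold values depend on the surroundings. Each row deposited by the authors gives a fold (a ratio of summit reads to local background), a −log10 p-value, a −log10 q-value, a score and a summit offset of another unit, in bp. The score was not used. The authors' q-values are adjusted within 1 list.

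Whole reads and background were recovered from the deposited fold and −log10 p for 100% of summits (100% of 4000 simulated summits), and depth from the lowest background, assuming a genome of 2700000000 bp. Peaks were shared at an overlap of 1 bp or more. Genes and TSSs of protein-coding transcripts came from GENCODE release 44. With 1 merged list per line no test was possible. Shares carry Wilson 95% intervals and ratios exact conditional binomial intervals, which held the true ratio in 96% of 2000 simulations. All intervals cover counting error only, and reads without molecular identifiers are not independent molecules.

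The members and lists were chosen with earlier results of these data known. Genes were named when their promoter class was not both, when the ratio passed 2-fold, at the highest or lowest ratio of a role, or with the most line-only peaks, and peaks when among the 5 of highest −log10 q per line. WNT9A, WNT7B, WNT16, FZD1, FZD4, FZD5, FZD8, DKK2, DKK3, LRP6, SFRP4, SFRP5, AXIN2, RNF43, TCF7, TCF7L1 and shared sites were added after their values were seen. Python 3.11.15, pandas 2.3.3, SciPy 1.17.1 and statsmodels 0.14.6 were used. Alternatives were stricter or equal lists, other overlaps, promoter windows, TSS sets, gene windows, depths and ratio measures. Some sequences within these rules are not reported here.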

Additional observations from a re-analysis of the deposited data

How the results depend on the processing

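No paired analysis was possible because both libraries of a line had been merged before peak calling, and for the same reason no replicate could be left out. Of 76 recomputed values of the main counts and shares, 57 stayed within 1.5 times the main count or within the counting interval and 19 did not. With a −log10 q of at least 10 in both lists, 1 gene (WNT16) had a promoter peak in C4-2B only and 3 in C4-2BER only. Over all genes these shares were 3.05% and 3.39%. With equal numbers of top peaks, 8 genes had one in C4-2BER only, against 5.12% of all genes, and 21.5% of C4-2B and 25.3% of C4-2BER window peaks were line-only, so the order of the lines turned. In the windows of all genes these shares were 26.9% and 25.6%, where it did not turn. With the top 50000 peaks the values were 11 genes (6.86% of all genes), 25.9% and 27.7% (all genes 25.4% and 25.9%), and 23 windows had a C4-2B-only peak. With a reciprocal overlap of at least 50% the shares were 40.3% and 29.8% (all genes 44% and 30.6%). With strong line-only peaks against all peaks they were 14.9% and 8.06% (all genes 20.1% and 6.80%), in 23 and 14 windows. The fold ratio gave 0 genes at least 2-fold higher (0.647% of all genes) and 1 lower (WNT3, 0.993% of all genes). Summed reads gave 7 higher (6.37% of all genes), and setting the median of all genes to 1 gave 2 (2.46%). Comparing overlapping promoter peaks, which was added after the values were seen, moved the ratio of WNT3 from 0.908 to 0.421 and that of WNT16 from 0.718 to 1.44, beyond their counting intervals, and 6 other genes stayed within theirs. Genes with a C4-2BER-only promoter peak outnumbered those with a C4-2B-only one in every setting run. The order was the same over all protein-coding genes in each of these settings. Their shares were 3.39% against 2.83% in the main setting and 2.94% against 2.71% with the TSSs of all transcripts. With 1000 bp promoters or the TSSs of all transcripts WNT10A left the C4-2BER-only class, and with canonical TSSs WNT3 took its place. The cause of these shifts was not tested. Weak sites are limited by depth, since the lower depth of C4-2BER can leave a peak uncalled.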
